A study of Mus musculus with 22 samples.

Results

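The genes described here are 33 genes of sterol and fatty acid synthesis, chosen by symbol from the 37669 genes of the large Pro-B table, the 37851 of the large Pre-B table and the 26095 of the small Pre-B table. All 33 symbols were found in each table, and all 33 passed the filter on low values in each. By role they comprised 7 enzymes of the mevalonate pathway, 11 enzymes from squalene to cholesterol, 5 genes of SREBP control, the sterol carrier Stard4, and 9 genes of fatty acid synthesis and desaturation. The question was whether their mRNA levels differed between mice expressing LIN28B and their littermate controls in each of 3 stages of B cell development.

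tet-LIN28B mice carried 1 allele of a doxycycline-inducible, Flag-tagged human LIN28B cDNA at the Col1a locus together with the transactivator rtTA-m2 at Rosa26, which is expressed in most cell types, so induction was not limited to B cells. Control mice were littermates heterozygous for the Rosa26 rtTA alone. All were adult mice, and both genotypes ate chow containing 200 mg/kg doxycycline over a period of 10 days. Poly-A RNA was sequenced from bone marrow cells depleted of CD3, TER119 and GR1 positive cells and sorted as CD93+ IgM- cells of the B lineage, with cKIT dividing Pro-B from Pre-B cells and forward scatter dividing large from small cells. Large Pro-B cells were sequenced from 5 tet-LIN28B and 4 control mice, large Pre-B cells from 4 tet-LIN28B and 3 control mice, and small Pre-B cells from 3 mice of each genotype. The 22 libraries came from 15 mice, because 7 mice provided both large stages.

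As background, cells make cholesterol from acetyl-CoA. The mevalonate pathway builds isoprenoid units, squalene is formed and cyclised, and a series of demethylations, reductions and isomerisations gives cholesterol. The same acetyl-CoA, made from citrate by Acly or from acetate by Acss2, feeds fatty acid synthesis. Transcription of most of these enzymes is driven by SREBP proteins, encoded by Srebf1 and Srebf2. These precursors sit in the membrane of the endoplasmic reticulum bound to the escort protein SCAP. When sterol is low SCAP carries them to the Golgi for cleavage, and when sterol is high INSIG1 and INSIG2 hold the complex back. Dividing lymphocyte precursors need membrane lipid, while small Pre-B cells have left the cell cycle. LIN28B is an RNA-binding protein that prevents precursors of the let-7 microRNA family from maturing, and it has mRNA targets of its own.

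The small Pre-B libraries were the deepest (32.0 to 51.0 M reads), ahead of large Pre-B (19.9 to 30.4 M) and large Pro-B (13.9 to 23.3 M). Reads assigned to Lin28b, which include those of the transgene as far as they align, were higher in every tet-LIN28B library than in every control library of the stage, at 57.0 to 232.1, against 4.63 to 10.2 normalized counts in large Pro-B, 41.9 to 175.3 against 9.92 to 28.8 in large Pre-B, and 81.9 to 230.2 against 0 in small Pre-B cells. Markers of B cell precursors such as Cd79b were abundant in all libraries. The small Pre-B libraries were alike (mean correlation of log2 values with the other libraries 0.973 to 0.977). In large Pro-B cells tet-LIN28B 4 (0.884) and control 4 (0.877) stood apart from the others (0.909 to 0.93), and in large Pre-B cells control 3 did (0.922, against 0.94 to 0.951). Values are the deposited normalized counts, that is counts divided by a size factor for each library. In bulk RNA, fewer cells of a type and less RNA per cell cannot be told apart.

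In small Pre-B cells 5 of the 33 genes (15.2%) passed an adjusted p under 0.05 in limma with Benjamini-Hochberg adjustment over 14664 genes, beside 14.4% of all genes tested. Pmvk, Cyp51 and Srebf2 were higher in tet-LIN28B cells (9.09% of the 33 genes, against 7.34% of all genes), and Scap and Acss2 were lower (6.06%, against 7.03%). The share called was thus close to that of all genes, and the median log2 fold change of the 33 genes was -0.02, beside -0.002 for all genes. The 2 genotypes did not overlap for 13 of the 33 genes (39.4%), beside 33.9% of all genes. Of the 5 called genes Srebf2 and Scap belong to SREBP control, and the other 3 to a pathway each.

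**Figure D1:**
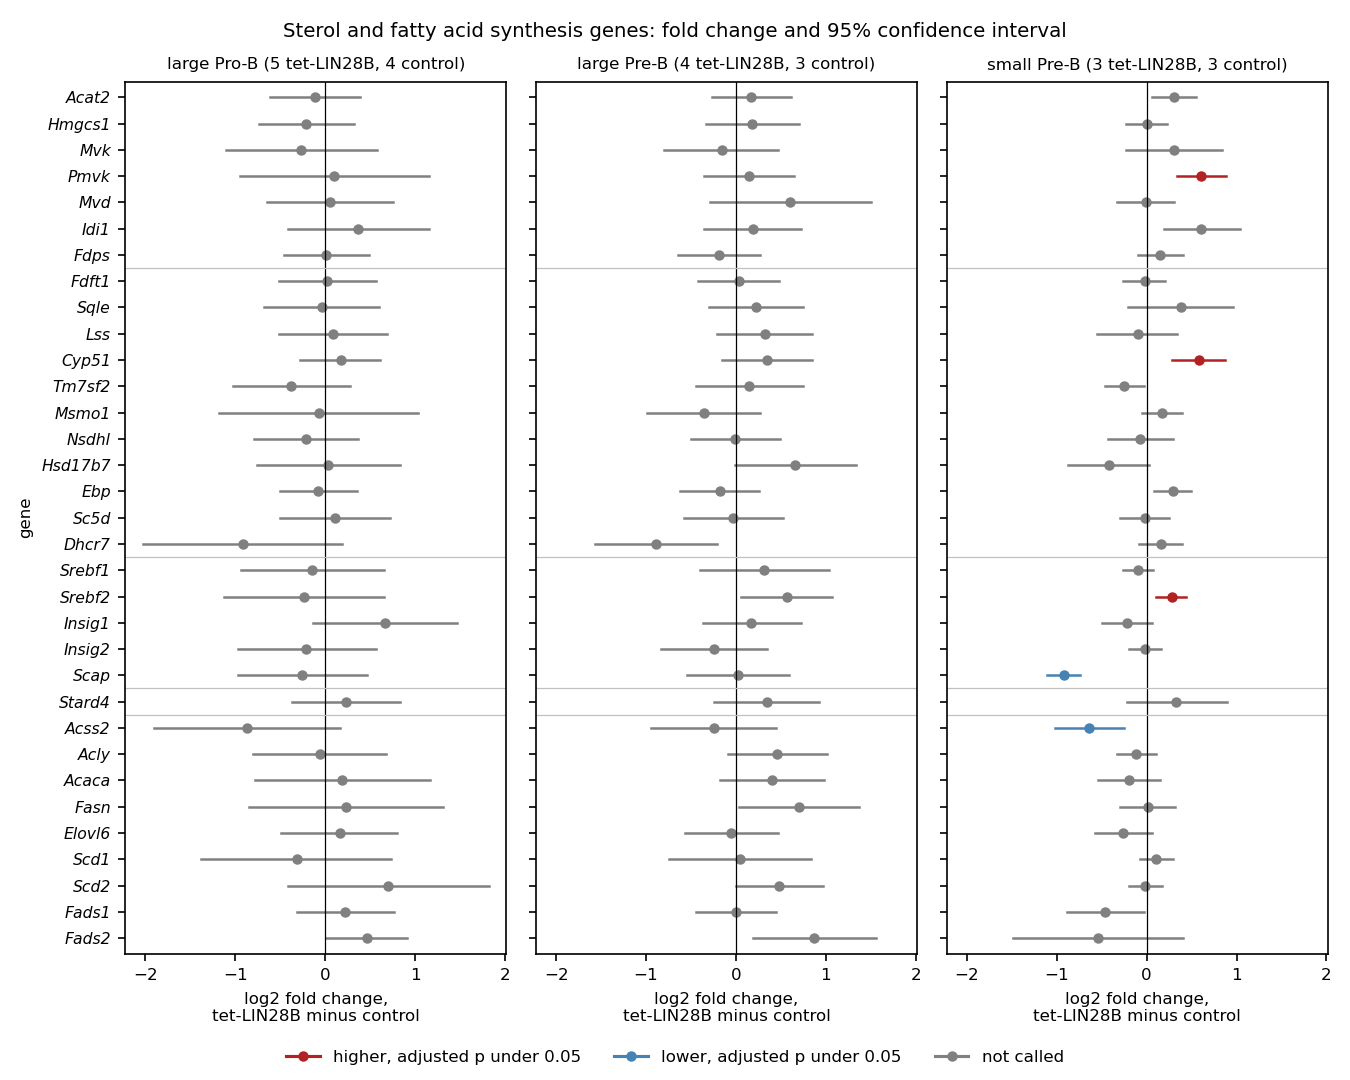
Log2 fold change of tet-LIN28B minus control (points) with its 95% confidence interval (lines) for the 33 genes in each stage, on the log2(normalized count + 1) scale and ordered by role from the mevalonate pathway at the top to fatty acid synthesis at the bottom. In small Pre-B cells Pmvk, Cyp51 and Srebf2 lie above 0 and Scap and Acss2 below, and in the 2 large stages no gene was called.

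Scap, the escort that moves SREBP precursors out of the endoplasmic reticulum, showed the largest fold change among the called members. It had 3068.0, 3693 and 3157 normalized counts in the tet-LIN28B small Pre-B libraries, against 6148, 6575 and 6045 in the control libraries. The highest tet-LIN28B library lay far below the lowest control library, and the mean was 3306 ± 338 against 6256 ± 281 (SD, n = 3 each), a ratio of 0.528. The log2 fold change was -0.92 ± 0.08 (SE, 95% interval -1.11 to -0.74, limma adjusted p = 0.000159), and the call held with each of the 6 libraries left out in turn (adjusted p 9.77e-05 to 0.0016).

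Scap lies on chromosome 9 (110333288 to 110384950, plus strand, mm10), and its exons overlap those of 5830462I19Rik on the other strand. The kit named in the labels, SMART-Seq v4, does not mark the strand, so reads of the 2 genes cannot be told apart where they overlap. 5830462I19Rik had 166.8 to 223.0 normalized counts in tet-LIN28B cells, against 407.6 to 443.3 in control cells (log2 fold change -1.12 ± 0.16, limma adjusted p = 0.00168). Its level was thus well under that of Scap, and both were lower in tet-LIN28B cells. The 250 bases before the RefSeq start site of Scap (chr9:110333038-110333287, GRCm38.p6, plus strand) are shown because this gene carried the clearest difference. They hold none of the 3 motifs searched on both strands: TCACNCCAC for a sterol response element, CACGTG for an E-box and CCAAT for a CCAAT box.
Scap upstream: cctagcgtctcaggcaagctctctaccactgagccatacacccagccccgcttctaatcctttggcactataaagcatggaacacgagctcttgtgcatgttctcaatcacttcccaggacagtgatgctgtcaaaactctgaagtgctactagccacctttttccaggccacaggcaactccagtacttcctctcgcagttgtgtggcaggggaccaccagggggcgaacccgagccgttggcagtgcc

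Srebf2, which encodes SREBP2, the SREBP that mainly drives sterol synthesis, moved the other way. It had 3845, 4306 and 3684 normalized counts in tet-LIN28B small Pre-B cells, against 3274, 3256 and 3201 in control cells. The genotypes did not overlap, and the control libraries lay close together. The log2 fold change was 0.28 ± 0.07 (95% interval 0.11 to 0.44, limma adjusted p = 0.0332). This call was lost with each of 5 libraries left out (adjusted p 0.0706 without tet-LIN28B 1, 0.0915 without tet-LIN28B 2, 0.0905, 0.0913 and 0.109 without control 1, 2 and 3), and held only without tet-LIN28B 3.

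The remaining genes of SREBP control were not called in small Pre-B cells. Srebf1, whose products include the SREBP1 forms that drive fatty acid synthesis, had 2541, 2837 and 2915 normalized counts in tet-LIN28B cells, against 2901, 3003 and 2941 in control cells (log2 fold change -0.10 ± 0.07). Insig1, itself a target of SREBP, had 466, 394 and 474 normalized counts in tet-LIN28B cells, against 489, 555 and 511 in control cells, with no overlap (-0.22 ± 0.13, limma adjusted p = 0.276). Insig2 had 1583, 1582 and 1531 normalized counts in tet-LIN28B cells, against 1697, 1534 and 1532 in control cells (-0.02 ± 0.08, 95% interval -0.20 to 0.16). Of these 3 genes Insig2 was thus the closest to equal, and Insig1 was lower in every tet-LIN28B library without passing the test.

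**Figure D2:**
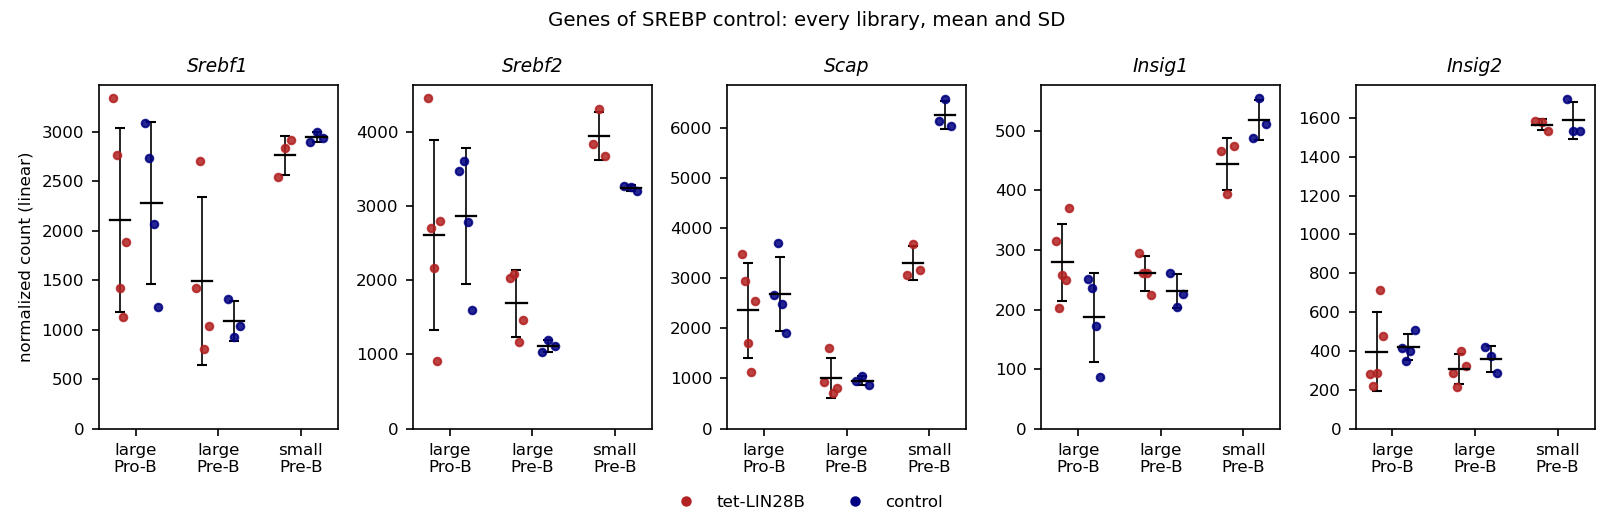
Normalized counts on a linear axis from 0 of Srebf1, Srebf2, Scap, Insig1 and Insig2 in every library of the 3 stages, tet-LIN28B (red) left of control (blue) in each stage, with the group mean (line) and SD (bar). The 3 tet-LIN28B small Pre-B libraries lie between 3068.0 and 3693 for Scap, all below the control libraries, whose lowest value was 6045, and the stages were normalized separately, so heights compare within a stage only.

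In the mevalonate pathway 1 of 7 genes was called in small Pre-B cells, and 6 of 7 fold changes were above 0 (median 0.30, range -0.01 to 0.61). Fold changes above 0 made up 45.5% of the 33 genes and 49.7% of all genes tested. Pmvk, the kinase that turns phosphomevalonate into mevalonate diphosphate, rose. It had 737, 638 and 764 normalized counts in tet-LIN28B cells, against 506, 468 and 428 in control cells. The genotypes did not overlap (mean 713 ± 66.4 against 468 ± 39.0, SD, n = 3 each), and the log2 fold change was 0.61 ± 0.12 (95% interval 0.34 to 0.88, limma adjusted p = 0.00974). The call held with each of the 6 libraries left out (adjusted p 0.00951 to 0.0428). Its upstream window (chr3:89454291-89454540, GRCm38.p6, plus strand, from RefSeq) is shown for comparison with that of Scap, and it holds a single CCAAT box, in capitals, at -136 from the start site.
Pmvk upstream: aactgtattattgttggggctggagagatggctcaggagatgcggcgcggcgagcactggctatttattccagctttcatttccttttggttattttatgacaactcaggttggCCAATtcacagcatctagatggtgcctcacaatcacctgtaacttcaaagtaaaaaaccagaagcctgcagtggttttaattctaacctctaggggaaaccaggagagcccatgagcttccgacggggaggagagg

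Idi1, the isomerase that interconverts the C5 isoprenoid units, differed by as much as Pmvk but varied more. It had 491, 414 and 558 normalized counts in tet-LIN28B small Pre-B cells, against 306, 249.8 and 412 in control cells. The lowest tet-LIN28B library lay just above the highest control library, and the limma adjusted p was 0.0605 (log2 fold change 0.61 ± 0.19). Acat2, the cytosolic thiolase that makes acetoacetyl-CoA, had 1345, 1276 and 1059.9 normalized counts in tet-LIN28B cells, against 1009, 1036 and 918 in control cells, also without overlap (0.31 ± 0.11, limma adjusted p = 0.0912). Hmgcs1 and Mvd, which make HMG-CoA and isopentenyl diphosphate, had nearly equal means, 1343 ± 75.2 against 1346 ± 168 and 322 ± 29.9 against 326 ± 32.9 normalized counts in tet-LIN28B and control cells. Mvk and Fdps overlapped between the genotypes. Neighbouring steps of the pathway thus did not all carry the difference seen for Pmvk.

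Among the 11 enzymes from squalene to cholesterol 1 was called in small Pre-B cells. Of the 11 fold changes 5 were above 0, beside 49.7% of all genes (median -0.02, range -0.42 to 0.58). Cyp51, the lanosterol demethylase, rose. It had 691, 613 and 522 normalized counts in tet-LIN28B cells, against 414, 413 and 389.8 in control cells, and the log2 fold change was 0.58 ± 0.13 (95% interval 0.28 to 0.87, limma adjusted p = 0.0171). All 3 tet-LIN28B libraries were above the controls, which lay within a narrow range. The call was lost without tet-LIN28B 1 (limma adjusted p = 0.0671), control 1 (0.0528) or control 3 (0.0634). Cyp51 (chromosome 5, 4081145 to 4104746, minus strand) shares exon sequence with Akap9 on the other strand, which had 3018 to 4902 normalized counts in tet-LIN28B and 3705 to 4015 in control cells (log2 fold change -0.10 ± 0.15, limma adjusted p = 0.701).

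The sterol isomerase Ebp had 1822, 1788 and 1674 normalized counts in tet-LIN28B small Pre-B cells, against 1343, 1606 and 1398 in control cells, without overlap (log2 fold change 0.29 ± 0.09, limma adjusted p = 0.0639). The sterol C14 reductase Tm7sf2 lay the other way, with 1618, 1575 and 1936 in tet-LIN28B cells, against 1967, 2170.0 and 1942 in control cells (-0.25 ± 0.10, limma adjusted p = 0.117). Msmo1 and Dhcr7, a methyl sterol oxidase and the last reductase before cholesterol, did not overlap between genotypes either, at 705 to 774 against 635 to 667 and at 798 to 949 against 737 to 783 normalized counts in tet-LIN28B and control cells. The other 6 genes overlapped: Fdft1 and Sqle, which make squalene and its epoxide, Lss, which closes the rings, and Nsdhl, Hsd17b7 and Sc5d of the later steps. Among them Fdft1 had means of 781 ± 76.6 in tet-LIN28B and 791 ± 20.0 in control cells.

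**Figure D3:**
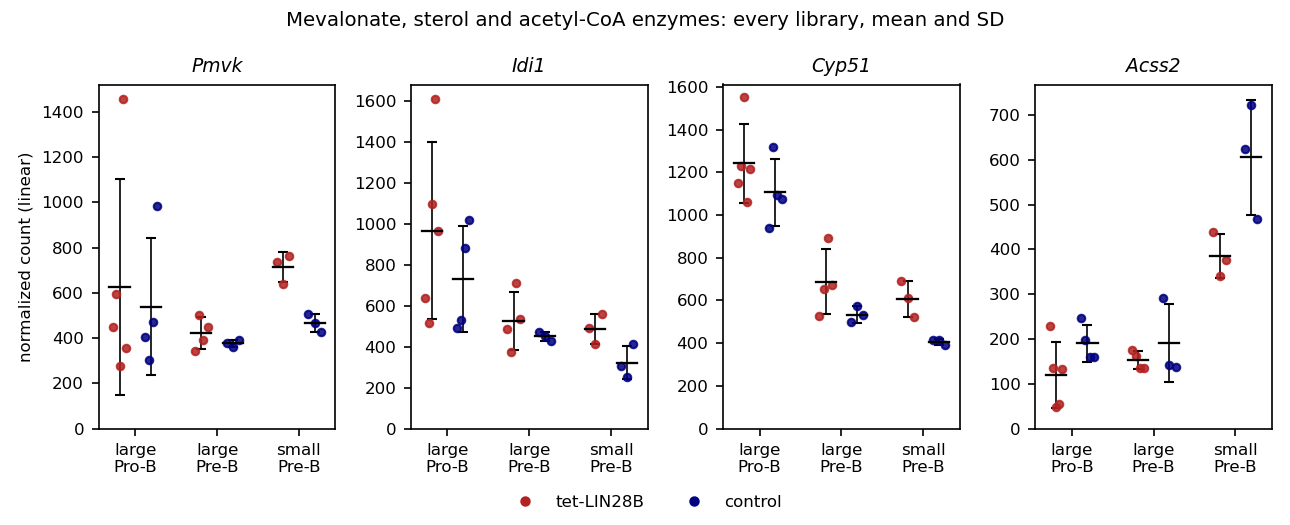
Normalized counts on a linear axis from 0 of Pmvk, Idi1, Cyp51 and Acss2 in every library, tet-LIN28B (red) left of control (blue) in each stage, with the group mean (line) and SD (bar). In small Pre-B cells the tet-LIN28B libraries lie above the controls for Pmvk, Idi1 and Cyp51 and below them for Acss2, and in large Pro-B cells 1 tet-LIN28B library reached 1456 for Pmvk.

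In fatty acid synthesis and desaturation 1 of 9 genes was called in small Pre-B cells. Of the 9 fold changes 2 were above 0, beside 49.7% of all genes (median -0.19, range -0.64 to 0.11). Acss2, which makes acetyl-CoA from acetate, fell. It had 439, 341 and 377 normalized counts in tet-LIN28B cells, against 624, 723 and 469 in control cells (log2 fold change -0.64 ± 0.17, 95% interval -1.02 to -0.25, limma adjusted p = 0.0345). The highest tet-LIN28B library was just under the lowest control library. The call was lost without tet-LIN28B 2 (limma adjusted p = 0.0818), tet-LIN28B 3 (0.0599), control 1 (0.116) or control 2 (0.122). Acss2 shares exon sequence with Ggt7 and Gss on the other strand, of which Gss had 378 to 474 normalized counts in tet-LIN28B and 293 to 455 in control cells (0.28 ± 0.18, limma adjusted p = 0.328).

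The main enzymes of fatty acid synthesis overlapped between the genotypes in small Pre-B cells. Acly, which makes acetyl-CoA from citrate and was the most abundant of the 33 genes, had 13133 ± 1778 normalized counts in tet-LIN28B cells, against 14148 ± 762 in control cells. Fasn, the fatty acid synthase, had 1207 ± 192 against 1194 ± 178 (SD, n = 3 each). The desaturases Scd1 and Scd2, which make monounsaturated fatty acids, had 3217 ± 249 against 2974 ± 173 and 6257 ± 627 against 6313 ± 394. Acaca, the carboxylase that makes malonyl-CoA, and the elongase Elovl6 also overlapped. Fads1, the delta-5 desaturase of polyunsaturated fatty acids, had 173, 226 and 144 normalized counts in tet-LIN28B cells, against 238, 263 and 237 in control cells, without overlap (log2 fold change -0.46 ± 0.19, limma adjusted p = 0.143). Its partner Fads2, the delta-6 desaturase, was low, at 17.6 to 56.3 against 49.7 to 60.1. The sterol carrier Stard4 overlapped at 157 to 198 against 105 to 201.

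Other measured features moved with genotype in small Pre-B cells. The summed level of 25 cell division genes was 34108 to 42817 normalized counts in tet-LIN28B cells, against 31198 to 37047 in control cells, and 7 of them were called higher, beside 7.34% of all genes, none of the 25 being at 0 in all libraries. Of 5 genes listed as plasma cell markers 4 were tested and 3 called lower, beside 7.03% of all genes: Sdc1, Prdm1 and Irf4. The sum of the 5 was 12036 to 16168 in tet-LIN28B cells, against 20846 to 24200 in control cells. Irf4 and then Sdc1 were the most abundant of the 5, so the sum mostly follows these genes. Whether plasma cell content differed was not tested. Of 6 mature B cell markers 4 were tested and 3 called higher, beside 7.34% of all genes (sum 11880 to 12674 against 10386 to 10970). Of 10 erythroid markers 5 were tested and 2 called higher, beside 7.34% of all genes (sum 161 to 212 against 75 to 127). Of 13 myeloid markers only 5 were tested and none of these was called. The sum of all 13 was 1483 to 1559 in tet-LIN28B cells, against 1669 to 3106 in control cells. Of 12 B cell precursor markers 1 was called higher, beside 7.34% of all genes, and 2 lower, beside 7.03% (sum 461141 to 490691 against 437293 to 445320). Myc had 315, 441 and 469 normalized counts in tet-LIN28B cells, against 37.2, 76.8 and 39.5 in control cells. Genes with transcripts over 4000 bases had a median log2 fold change of -0.10, and those under 2000 bases one of 0.11. The coding transcripts used for this check were 4227 bases for Scap, 1194 for Pmvk, 3931 for Cyp51, 5077 for Srebf2 and 2145 for Acss2. Scap and Pmvk thus went with that trend and Srebf2 against it, while Cyp51 and Acss2 fell in neither length class. The part of these features in the changes of the 5 called genes was not tested.

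Because LIN28B blocks let-7, the 3′ UTRs were searched for the let-7 seed match CTACCTC. The 9 mature let-7 family members matched in RefSeq (let-7a to let-7i and miR-98) share the seed GAGGUAG, shown in capitals in 3 of them, and were not measured here.
mmu-let-7a-5p: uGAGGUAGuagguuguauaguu
mmu-let-7g-5p: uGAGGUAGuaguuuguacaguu
mmu-miR-98-5p: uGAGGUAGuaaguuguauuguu
Of the 32 members with a 3′ UTR in the chosen GENCODE transcript, 3 held a match, beside 9.29% of 10891 genes tested in small Pre-B cells. These were Srebf2 (position 918 of the 3′ UTR), Scd1 (1557) and Scd2 (3288), shown with the match in capitals. Srebf2 is the only one of the 3 that was called, and Scap, Pmvk, Cyp51 and the other members with a 3′ UTR hold no such match in these transcripts.
Srebf2 site: accctcactcCTACCTCccatagaagt
Scd1 site: cagatcctccCTACCTCcaactcatgt
Scd2 site: tattcctgacCTACCTCcacgggtagg

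For promoters, 26 of the 33 genes matched a RefSeq window of 250 bases before the start site. A CCAAT box lay in 19 of the 26, beside 34.5% of 27025 windows of that length, the E-box in 3 (Insig1, Hsd17b7 and Sc5d), beside 6.04%, and TCACNCCAC in 1, beside 1.03%. The last was TCACCCCAC at -137 of Hmgcs1, on chromosome 13. CCAAT boxes lay upstream of Pmvk, Cyp51, Srebf2 and Acss2, which include genes called in both directions, and Scap had none. Letters that match a motif are not evidence of a bound site.

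In large Pre-B cells none of the 33 genes was called in limma (0 by edgeR and 0 by DESeq2), beside 0.0565% of 14155 genes (0.0424% higher and 0.0141% lower). At an unadjusted p under 0.05 there were 4 (12.1%), beside 6.57% of all genes, and the median log2 fold change was 0.17, beside -0.017 for all genes. The genotypes did not overlap for 4 of the 33 genes (12.1%), beside 6.46% of all genes. Rescaling each library to the same total moved these medians to 0.06 and -0.13, a shift of about the same size for both. Dhcr7 had 198, 156, 104 and 119 normalized counts in tet-LIN28B cells, against 216, 223 and 362 in control cells, without overlap (log2 fold change -0.89 ± 0.32, limma adjusted p = 0.747). Fasn had 1375, 2016, 646 and 1054 against 645, 774 and 749.7, and Fads2 had 247, 311, 208 and 157 against 165, 109 and 99.9. Both overlapped.

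None of the genes of SREBP control was called in large Pre-B cells. Srebf2 had 2029, 2089.9, 1165 and 1470.5 normalized counts in tet-LIN28B cells, against 1028, 1194 and 1112 in control cells, with 1 tet-LIN28B library inside the control range (log2 fold change 0.57, 95% interval 0.06 to 1.07, limma adjusted p = 0.747). Scap, which fell in small Pre-B cells, had 936, 1599, 716 and 815 in tet-LIN28B cells, against 945, 1050.4 and 876 in control cells (0.02, interval -0.55 to 0.59). Srebf1 had 1422, 2712, 807 and 1041 against 1315, 925 and 1035, Insig1 had 296, 261, 261 and 225 against 262, 205 and 225, and Insig2 had 288, 215, 401 and 323 against 418, 371 and 287. tet-LIN28B 2 was the highest library for Srebf1, Srebf2 and Scap. Cyp51 had 526, 656, 894 and 674 against 498, 574 and 529.5, Pmvk 344, 504, 393 and 448 against 378, 360.5 and 392, and Acss2 175, 162, 135 and 136 against 290.4, 142 and 138. Control 3, the library that stood apart, was the lowest for 13 of the 33 genes. Without it 1 of the 33 reached an unadjusted limma p under 0.05, beside 562 of 14613 genes. The median log2 fold change was then 0.06 for the 33 genes, beside -0.05 for all genes. The sum of 13 myeloid markers was 205 to 368 normalized counts in the tet-LIN28B libraries, against 346, 6519 and 981 in control 1, 2 and 3, so the high values lay in control 2 and control 3. The sum of 10 T and NK cell markers was 103 to 177 in tet-LIN28B and 210 to 338 in control libraries. The part of these markers in the values was not tested.

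In large Pro-B cells no gene of the 13776 tested was called in limma (0%), none of the 33 was called by edgeR or DESeq2, and 1 of the 33 (3.03%) reached an unadjusted p under 0.05, beside 2.86% of all genes. That gene was Fads2, with 1469.9, 1252, 1074, 1114 and 1133 normalized counts in tet-LIN28B cells, against 984, 968, 892 and 679 in control cells, without overlap (log2 fold change 0.46 ± 0.21, limma adjusted p = 0.999). Groups without overlap were seen for 1 of the 33 genes, beside 1.3% of all genes. Scap had 3492, 2946, 1699, 1137 and 2539 normalized counts in tet-LIN28B cells, against 2661, 3700.3, 2482 and 1915 in control cells (-0.26, 95% interval -0.97 to 0.46). Srebf2 had 4465, 2702, 2166, 916 and 2803 against 3474, 3608, 2791 and 1606 (-0.24, interval -1.13 to 0.65). Pmvk had 449, 596, 275, 1456 and 355 against 403, 302, 469.9 and 983, and Cyp51 had 1152, 1229, 1553, 1061 and 1218 against 939.7, 1318, 1093 and 1077. Srebf1 had 3346, 2769.9, 1418, 1125 and 1890.2 against 3095, 2739, 2069.5 and 1226, Insig1 had 315, 203, 258, 249.7 and 371 against 252, 237, 171 and 86.2, Insig2 had 281, 217, 289, 715 and 479 against 417, 349.5, 401 and 508, and Acss2 had 229, 135, 48.9, 54.9 and 133 against 246, 197, 161 and 159. All 8 of these genes after Fads2 overlapped between genotypes.

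The spread in large Pro-B cells was centred on tet-LIN28B 4, which was the highest library for 9 of the 33 genes, among them Pmvk, and the lowest for another 9, among them Srebf1, Srebf2, Scap and Fasn. In that library genes with transcripts over 4000 bases deviated from the stage median by -0.58 and those under 2000 bases by 0.45 on the log2 scale, a difference of -1.02. Control 4 had a difference of -0.67, and the other 7 libraries -0.3 to 0.38. Between the genotypes the median log2 fold change was 0.18 for the longer class and -0.09 for the shorter class. With both libraries left out, a choice made after seeing the data, none of the 33 genes was called. Of the 33, 3 then had an unadjusted limma p under 0.05, beside 1002 of 14102 genes. The median SE of the 33 fold changes was 0.33 in large Pro-B, 0.26 in large Pre-B and 0.12 in small Pre-B cells, so a change of the size of that of Pmvk or Cyp51 in small Pre-B cells was harder to detect in the large stages.

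The test of the difference between stages called none of the 33 genes in any of the 3 contrasts (limma over 11830 genes with the mouse as a random block; 4, 2 and 0 genes called in all, 0.0338%, 0.0169% and 0%). Without adjustment, limma gave a p under 0.05 for 3 of the 33 genes for small Pre-B minus large Pro-B, for 3 for small Pre-B minus large Pre-B and for 1 for large Pre-B minus large Pro-B. Over all 11830 genes the counts were 567, 286 and 521 in the same order. For Scap the log2 fold change in small Pre-B was different by -1.0 ± 0.44 from that in large Pre-B cells (limma adjusted p = 0.999) and by -0.67 ± 0.42 from that in large Pro-B cells (limma adjusted p = 0.992). The genotype difference in Scap is therefore not shown to be particular to the small stage. The trend of fold change with transcript length had opposite signs in the small and the large stages, and its part in these contrasts was not tested. The model took a single variance for each gene over all libraries, so the wider spread of the large stages entered every contrast. A lack of calls thus does not show that the genotype effects are alike between stages.

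Levels of different genes were compared per exon length, as RPKM (reads per kilobase of exon and M reads), a scale on which stages normalized separately can be set side by side as shares of each library, without a test. Exon length was that of all annotated exons of a gene merged. It was 7443 bases for Scap, against 4227 for its coding transcript, and 5464 against 5455 for Scd2, so the order of genes can depend on this choice. In small Pre-B cells Acly was the highest of the 33 genes at 69.9 ± 8.58 RPKM in tet-LIN28B and 77.3 ± 4.15 in control cells, and alone held 22.6 to 26.9% of the reads of the 33 genes in tet-LIN28B and 25.3 to 27.3% in control libraries. Scd2 followed at 32.2 ± 3.00 against 33.3 ± 2.07. Scap was the third gene in control cells at 24.2 ± 1.12, and stood at 12.5 ± 1.24 in tet-LIN28B cells. Together the 33 genes took 0.14 to 0.149% of reads in tet-LIN28B small Pre-B libraries, against 0.156 to 0.159% in control libraries, without Acly 0.107 to 0.11% against 0.115 to 0.117%, and without Acly and Scap 0.0968 to 0.101% against 0.0974 to 0.0991%. The genotypes thus overlapped once Scap was left out too, both genes having been chosen after their values were seen.

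Between the control libraries of the stages, levels differed for part of the 33 genes. For the small stage, a difference of stage cannot be told apart from a difference between sets of animals. In small Pre-B cells 18 of the 33 genes (54.5%) took a lower share of reads than in large Pro-B cells without overlap of the libraries, beside 26.4% of 11830 genes, and 4 (12.1%) had higher, beside 39%. Sqle stood at 0.653 RPKM in small Pre-B, against 22.4 in large Pro-B cells, a ratio of 0.0292. Fads2 had a ratio of 0.0319, Fads1 of 0.084, Elovl6 of 0.135, Cyp51 of 0.19 and Idi1 of 0.229. The 4 higher genes were Scd1 (ratio 6.61), Insig2 (1.97), Scd2 (1.93) and Insig1 (1.44). The 18 lower genes comprised 6 of the 7 mevalonate genes, 7 of the 11 from squalene to cholesterol, Stard4 and 4 of the 9 of fatty acid synthesis and desaturation. Msmo1, Hsd17b7, Sc5d and Dhcr7, of the steps after lanosterol, overlapped between the stages, at ratios of 0.868, 1.29, 1.38 and 0.834.

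Against control large Pre-B cells, 15 of the 33 genes were lower in control small Pre-B cells without overlap (45.5%, beside 28.8% of genes) and 8 were higher (24.2%, beside 42%). The higher ones included Scd1 (ratio 3.84), Scap (2.94), Insig2 (2.01) and Srebf2 (1.3). Between control large Pre-B and control large Pro-B cells 7 genes were lower (21.2%, beside 8.66%), among them Scap (0.41) and Srebf2 (0.449), and Sc5d alone was higher (3.03%, beside 9.75%). For Scap the control level thus went through 20.1, 8.25 and 24.2 RPKM in the order of development, and the tet-LIN28B level through 17.8, 8.08 and 12.5. The large Pro-B and large Pre-B controls shared mice, and small Pre-B cells were taken from a separate set of animals. The ratios and levels that involve small Pre-B cells therefore do not separate stage from set of animals.

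**Figure D4:**
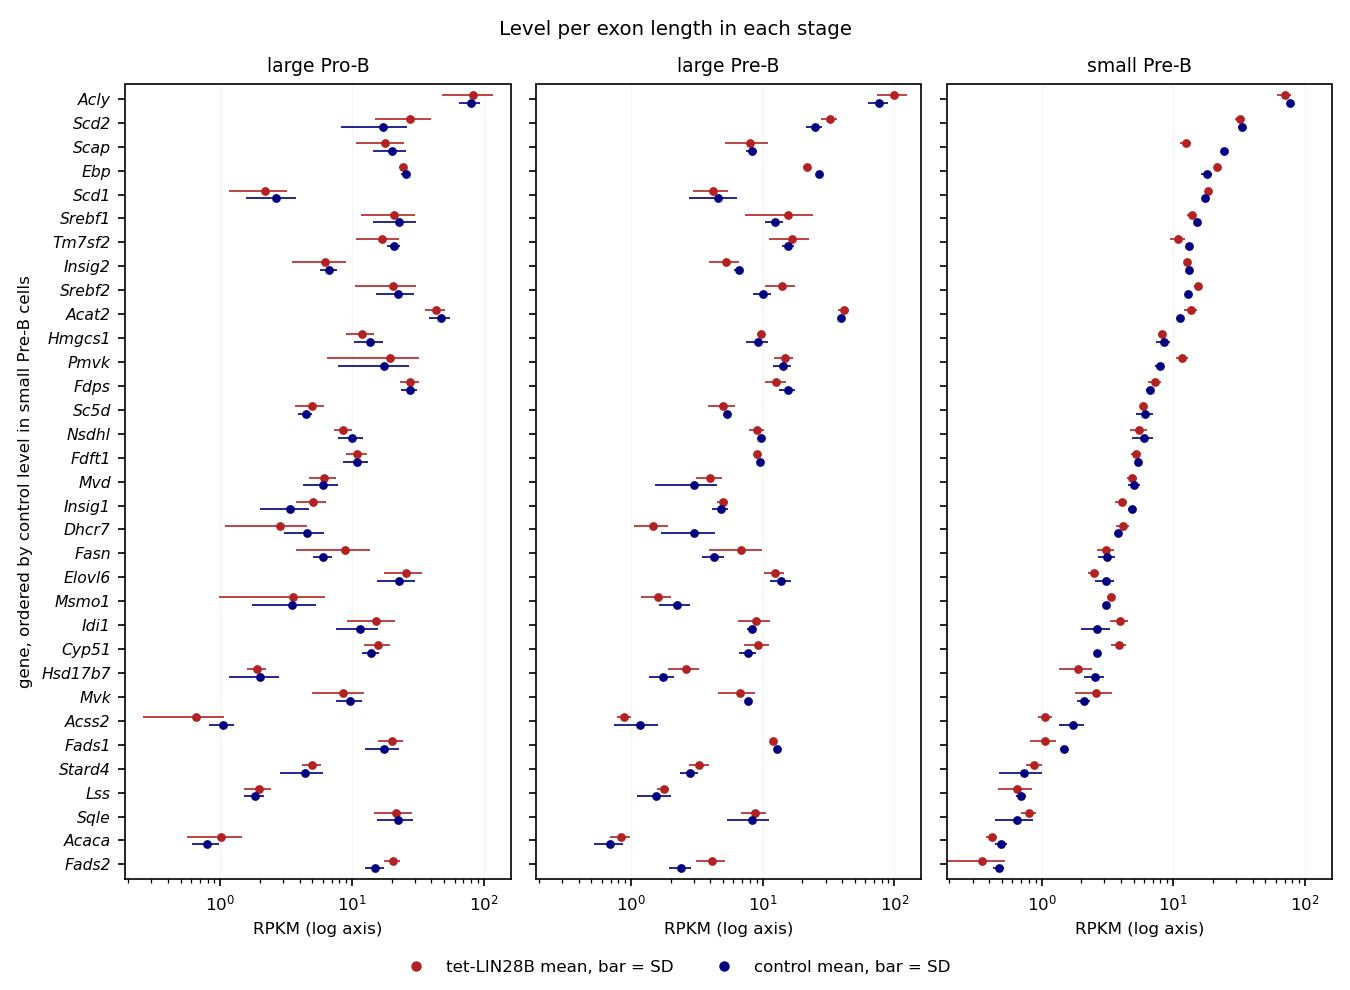
Level per exon length of the 33 genes in each stage, as RPKM on a log axis, with tet-LIN28B means (red, drawn above) and control means (blue, drawn below) and bars for the SD, ordered by the control level in small Pre-B cells. Sqle, Acaca and Fads2 sit at the bottom in small Pre-B cells, and the genotypes part most clearly for Scap, at 12.5 in tet-LIN28B and 24.2 in control small Pre-B cells.

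Genes of neighbouring lipid pathways are given for small Pre-B cells, where 7.34% of all genes were called higher and 7.03% lower. The lists were chosen with earlier results of these data known. In the isoprenoid branch 0 of 14 were higher and 2 lower: Zmpste24, a protease that trims prenylated lamin A (2585 ± 315 against 3985 ± 158 normalized counts in tet-LIN28B and control cells, log2 fold change -0.63, limma adjusted p = 0.00214), and Icmt, which methylates prenylated proteins (-0.77, adjusted p = 0.0277). Among 10 genes that process SREBP or sense sterol at the endoplasmic reticulum 2 were lower, among them Erlin2 (-0.35). Of 18 genes of sterol transport, storage and efflux 4 were lower, including Mylip, a ubiquitin ligase for lipoprotein receptors (-0.44), and Gramd1a, a sterol transfer protein (-0.35), and 1 higher, Stard5 (0.28).

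Of 18 genes of fatty acid supply, elongation and activation 2 were higher and 3 lower. Acsl4, which activates arachidonate, had 2252 ± 10.6 normalized counts in tet-LIN28B cells, against 3420.2 ± 91.7 in control cells (log2 fold change -0.60, limma adjusted p = 0.000447), and Hsd17b12 of the elongation cycle was higher (0.38). Mlxipl, a transcription factor of carbohydrate-driven lipid synthesis, was lower and scarce, at 2.11, 0 and 0 normalized counts in tet-LIN28B cells, against 12.1, 27 and 17.8 in control cells (limma adjusted p = 0.0114). Of 29 genes of phospholipid and triglyceride synthesis 3 were higher, among them Agpat3 (0.39) and Gpat3 (0.28), and 2 lower. Of the lower ones Pcyt1b, an enzyme of phosphatidylcholine synthesis, had 0, 0 and 0.905 normalized counts in tet-LIN28B cells, against 40, 59.5 and 19.7 in control cells (limma adjusted p = 0.00174). For Mlxipl and Pcyt1b, at or near 0 reads in tet-LIN28B cells, a fitted fold change would depend on the pseudocount, and none is given. Of 21 genes of fatty acid oxidation 1 was lower, Decr1 (-0.72), a reductase needed for unsaturated fatty acids. No list had more than 4 of its genes called in 1 direction.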

How the data were processed

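By their methods and processing notes, the authors mapped reads to mm10 (STAR 2.7.1), obtained gene counts from RSEM 1.28, and used DESeq2 for normalization. The deposited signal is a gene's count divided by the authors' size factor for the library, in 1 table for each stage. The annotation, and which library ran on the NextSeq or the NovaSeq, are not given in the sources used here. Fold changes and p-values from the authors' own comparison, also deposited, were left unused. Whole reads came back for 100% of values within 0.1 read, and such totals cover counting error only.

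Within a stage, genes reaching 10 normalized counts in as many libraries as the smaller group holds were tested with limma 3.58.1 (R 4.3.3, trended) on log2(normalized count + 1), which understates changes of low genes. A gene was called when its adjusted p (Benjamini-Hochberg) was under 0.05. Stage differences came from a model of all 6 groups in which mouse was a random effect (correlation 0.278). edgeR 4.0.16 and DESeq2 1.42.0 on recovered reads, other pseudocounts, filters and scalings, a replicate block and each library left out were alternatives, and the models were tested on simulated data. An SD is between mice and an SE from the fit. Gene coordinates and transcripts are of GENCODE M21 on GRCm38, the build of mm10, and printed sequences of RefSeq on GRCm38.p6, with target sites from GENCODE. Values are given in every library for called genes and SREBP regulators, for further members chosen after their values were seen. Up to 3 called genes of each neighbouring pathway are named, by smallest adjusted p, mostly with means or fold changes alone. Members and lists were chosen with earlier results of these data known.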

Additional observations from a re-analysis of the deposited data

Results flagged for a closer look

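In groups of 4 or 5 libraries, 8 of the 99 groups of member values tested held a library whose gap to its nearest neighbour was large for the range of the group, and chance gives about 1 in 20. In large Pro-B cells tet-LIN28B 4 was high for Pmvk (1456 normalized counts, against 275 to 596 in the other tet-LIN28B libraries), Fdps (3034, against 1758 to 1975), Sqle (3783, against 1672 to 2003) and Msmo1 (1003.5, against 193 to 388), and control 3 was high for Lss (444, against 317 to 336 in the other controls). In large Pre-B cells tet-LIN28B 1 was high for Fdft1 (646, against 639 to 639.7), tet-LIN28B 3 for Ebp (937, against 812 to 822) and tet-LIN28B 2 for Scd2 (3669, against 2673 to 2802).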

How the results depend on the processing

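Among the values described per gene, 508 of 542 under an alternative kept their direction and their side of the threshold. Of all 1650 alternative values of the 33 genes, 112 had the other sign, none of them called in either fit. In small Pre-B cells DESeq2 called 5 members higher, Idi1 (adjusted p = 0.0229) and Ebp (0.042) joining Pmvk, Cyp51 and Srebf2. It also called more genes in all, 1357 higher and 1317 lower, against 1076 and 1031 in limma. Quantile normalization also called Idi1 (0.0434), with 1003 genes higher and 1041 lower in all. Leaving out each library in turn gave 1 to 4 members called higher and 1 to 3 lower there, with 497 to 964 genes higher and 519 to 1016 lower in all, against 1076 and 1031 with every library. Both were lowest without control 1, and they also fell by over 1.5 times without tet-LIN28B 1 (567 and 673), control 2 (685 and 619) and control 3 (644 and 579). edgeR on the recovered reads called 994 and 1024. Rescaling libraries to the same total gave 828 and 1227, with the same numbers of members called.

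In large Pre-B cells counts over all genes were 6 higher and 2 lower, and became 12 higher with no filter, 0 higher and 1 lower after rescaling, 2 higher after quantile normalization, 0 and 0 by edgeR, 61 and 15 by DESeq2, and 0 to 18 and 0 to 5 with a library left out, the most without control 1. In large Pro-B cells DESeq2 called 3 genes higher and 1 lower, and leaving out a library gave 0 to 1 higher. No member was called in either stage under any of these. Fold changes of uncalled genes changed sign with a library left out for Srebf1 (-0.42 to 0.05), Srebf2 (-0.50 to 0.10) and Pmvk (-0.28 to 0.43) in large Pro-B, for Srebf1 (-0.03 to 0.56), Acss2 (-0.43 to 0.11) and Scap (-0.22 to 0.16) in large Pre-B, and for Insig2 (-0.04 to 0.03) in small Pre-B cells. Scap in large Pre-B cells was also at -0.09 after rescaling and -0.09 after quantile normalization. The cause of these changes was not tested.

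Libraries with the same replicate number did not deviate together in every pair (correlations -0.188 to 0.43). In large Pro-B cells numbers 1 (0.43) and 4 (0.274) matched their own number best, and elsewhere another number did. The numbers are thus not shown to pair mice, but deviations within such small groups cannot exclude a pairing. With the number as a replicate block, 3 members were called higher and 2 lower in small Pre-B cells, with 851 and 907 genes in all. Srebf2 lost its call (limma adjusted p = 0.051) and Idi1 gained one (0.0254). In large Pre-B cells 2 genes were called higher and 0 lower with this block. Stage differences called no member under any alternative, including the model without the mouse, though without tet-LIN28B 4 of large Pro-B 32 genes in all differed between small Pre-B and large Pro-B cells, against 4 with it. With 3 mice for each genotype and SEs near 0.12, changes as small as that of Srebf2 lie at the limit of what small Pre-B cells can show, and the low Fads2 counts left an SE of 0.43.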
